A study of Mus musculus with 24 samples.

Results

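The comparison described here is the response to Ang-II/BAPN in the aorta of Cthrc1 knockout mice whose library titles begin with F. It was chosen by title: the 3 libraries FKO_T1 to FKO_T3 (treated, called treated 1 to 3 below) were set against the 3 libraries FKO_C1 to FKO_C3 (PBS 1 to 3), 6 of the 24 libraries of the series, and all genes were examined. The series sequenced total RNA of mouse aorta in 8 groups of 3, which cross genotype (wild type or cthrc1-/-), the agent given (Ang-II/BAPN, or PBS as control) and the title, with or without the leading F. All 6 libraries of this comparison carry the cthrc1-/- label, so that treated and control libraries share the genotype. The labels give neither age, dose nor duration, do not say what F stands for, and do not say which animals shared a litter or a day. P-values therefore measure only a spread between libraries, which may be technical. That spread was estimated over all 24 libraries of the series and not from these 6 alone.

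Ang-II/BAPN joins angiotensin II, a peptide that constricts vessels and raises blood pressure, with β-aminopropionitrile, which blocks lysyl oxidases, the enzymes that join collagen and elastin chains covalently. Together they are used in mice as a model of aortic aneurysm and dissection, in which the elastic layers of the wall break, leukocytes enter and fibroblasts and smooth muscle cells lay down matrix. CTHRC1 is a secreted glycoprotein made by activated fibroblasts and by smooth muscle cells of injured arteries, and has been linked to noncanonical Wnt signalling and to collagen deposition.

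The targeted gene was examined first. Cthrc1 (chromosome 15, 39076932 to 39087121, plus strand, GRCm38) was at 0.165, 0.503 and 0.547 CPM in the PBS libraries and at 2.53, 5.91 and 10.5 CPM in the treated ones (CPM, counts scaled to library size, with TMM factors for composition). All treated libraries were above all PBS libraries, and the remaining Cthrc1 counts rose with treatment by 3.97 log2 units (SE 0.62, edgeR adjusted p = 0.00124). In F-titled wild type aorta the same gene was at 1.72, 1.61 and 1.71 CPM with PBS and at 112, 102 and 26.5 CPM with Ang-II/BAPN, so that each knockout library was below each wild type library of its treatment. The labels do not say which exons the allele lacks, so that counts from a remaining part of the transcript cannot be told apart from full-length RNA.

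The tissue label was checked against marker genes. Smooth muscle Acta2 lay between 3486 and 16970 CPM, Tagln between 1299 and 5138 CPM and Myh11 between 1187 and 4281 CPM over the 6 libraries. Xist, which coats the silent X chromosome of female cells, ranged from 476 to 784 CPM in the 6 libraries. Total counts ran from 45186407 to 79277927 a library and mitochondrial genes took 10.5 to 23.7% of them. PBS 1 and PBS 2 carried kidney transcripts: the 8 kidney tubule markers summed to 1786 and 2157 CPM there, to 104.5 CPM in PBS 3 and to 4.90, 24.2 and 28.4 CPM in treated 1 to 3. Treated 1 stood apart from the other treated libraries, with a correlation of 0.915 and 0.904 to them over log2 CPM against 0.966 between treated 2 and 3, and with the highest Rn7sk, an abundant small nuclear RNA, at 13.1 CPM against 0.241 to 4.85 CPM in the other 5. Treated 2 carried the most hemoglobin RNA: the 7 red cell genes summed to 23330 CPM there and to at most 2458 CPM in the other libraries.

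At an adjusted p under 0.05 in edgeR's quasi-likelihood test, 1605 of 24623 genes tested were called (6.52%). Of these, 1083 were higher after Ang-II/BAPN (4.4% of genes tested) and 522 were lower (2.12%). The counts called in each list below are to be read beside these 2 shares. The median log2 fold change was 2.07 among the genes called higher, -2.06 among those called lower and 0.02 over all genes tested. The 3 treated and 3 PBS libraries did not overlap for 5176 genes (21% of those tested), with treatment higher for 10.4% and lower for 10.6%, and 1482 of the called genes were among them. Leaving out PBS 1 gave 796 calls, leaving out PBS 2 gave 899, leaving out PBS 3 gave 868, leaving out treated 2 gave 746 and leaving out treated 3 gave 800. With the kidney marker sum as a covariate, a setting chosen after the data were seen, 313 genes were higher and 62 lower, and 303 and 61 of these were also in the calls above. The genes counted next are those named by rule below and some chosen after their values were seen. The latter are the Hox genes and genes picked for a small adjusted p or a fall kept with the kidney covariate. Of all these, 50 of 69 called higher kept their call without each of the 6 libraries in turn, and 11 of 50 called lower. Among those 11, only Kit and Acadm were named by rule.

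**Figure D1:**
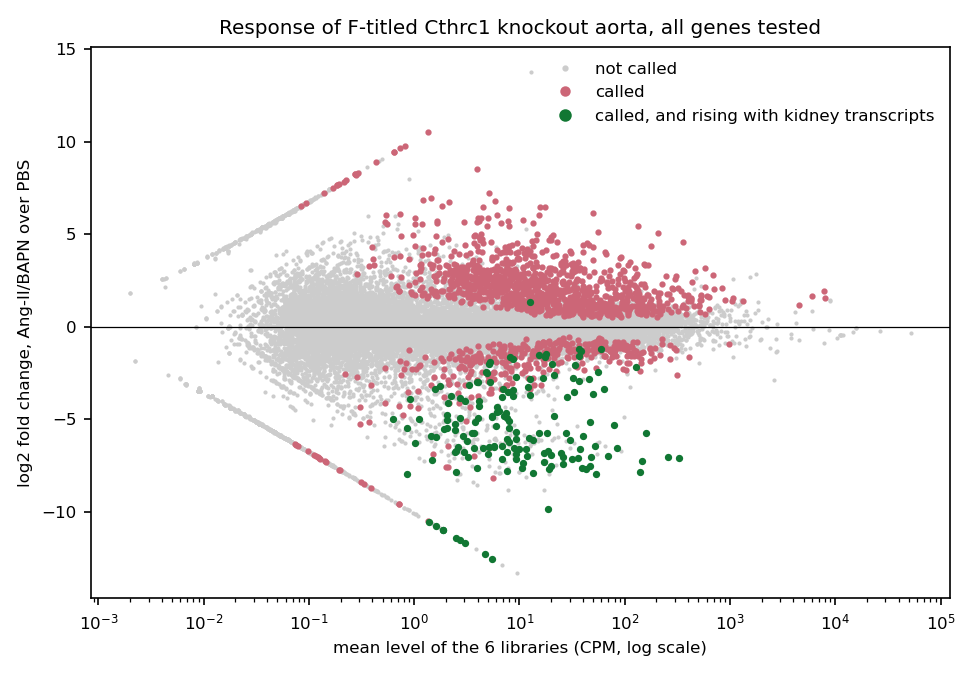
Each point is 1 of the genes tested: the x axis is its mean level over the 6 libraries (CPM, log scale) and the y axis its log2 fold change, Ang-II/BAPN over PBS. Red points are called, and green points are called genes whose level rises with the kidney marker sum over all 24 libraries; they make up 155 of the 522 genes called lower and 1 of the 1083 called higher. The straight edges on the left are genes with counts in only 1 of both groups, whose fitted fold changes are not estimates of size.

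Nearly all macrophage markers were called higher. Of the 18 macrophage markers tested, 17 rose and none fell, with a median log2 fold change of 2.93 beside 0.02 over all genes. Their summed level was 373, 286 and 353 CPM in PBS and 2371, 2659 and 1863 CPM in treated aorta, so the groups were far apart and treated 1 was within the range of the others. In whole tissue, more cells of a type and more RNA per cell cannot be told apart. Without treated 1, 17 of the 18 were again called, and with the kidney covariate 13 were.

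Cd68, a lysosomal glycoprotein of macrophages, was at 9.20, 6.45 and 6.60 CPM in PBS and at 64.5, 82.9 and 57.3 CPM in treated libraries (log2 fold change 3.20, SE 0.46, edgeR adjusted p = 0.000795). Csf1r, the receptor for the growth factor that macrophages need to survive, went from 37.1, 23.8 and 30.5 CPM to 199.9, 181 and 128 CPM (2.48, SE 0.37, edgeR adjusted p = 0.00097). Cd14, a coreceptor for bacterial lipopolysaccharide, was at 7.86, 3.92 and 3.60 CPM against 33.1, 50.1 and 56.8 CPM (3.19, SE 0.43, edgeR adjusted p = 0.000673). For each of these genes the lowest treated library was more than 3 times the highest PBS library. Lgals3, the lectin galectin-3, rose by 2.52 log2 units (SE 0.39, edgeR adjusted p = 0.00117). The calls of these 4 held without each library in turn. The marker that missed the threshold was Gpnmb, a glycoprotein of lipid-laden macrophages, at 26.8, 42.6 and 25.0 CPM against 104, 40.6 and 33.01 CPM, with overlapping groups (edgeR adjusted p = 0.266).

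Spi1, which encodes PU.1, the transcription factor that myeloid cells depend on, was at 4.29, 4.60 and 3.12 CPM in PBS and at 35.6, 39.8 and 32.9 CPM after treatment, 3.17 log2 units higher (SE 0.41, adjusted p = 0.000547 in edgeR). It was named, with Srpx2, Emp1, Laptm5, Serpina3n, Zfp469, Fermt3 and S100a4, because its adjusted p was among the smallest of all named genes, a choice made after the values were seen. Fermt3, the integrin activator kindlin-3 of blood cells, was at 5.72, 3.83 and 4.72 CPM against 26.8, 48.5 and 26.7 CPM. Treated libraries were above PBS libraries in all of these, but the choice took only genes whose groups do not overlap.

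The core letters that PU.1 binds, GAGGAAGT or their reverse complement ACTTCCTC, were looked for in RefSeq promoters of build GRCm38.p6 (250 bases before to 50 after a start site). They stood in at least 1 promoter of 75 of 815 genes called higher that had a promoter in that table (9.2%), of 10 of 384 genes called lower (2.6%), and of 549 of 15006 genes tested (3.66%). Over all 27025 genes of the table the share was 3.69%. The letters TGANTCA, the site of AP-1 factors on both strands, stood in promoters of 89 of the 815 genes called higher (10.9%), 25 of the 384 called lower (6.51%), 1089 of the 15006 tested (7.26%) and 2425 of all in the table (8.97%). These are counts of letters, not of bound sites, and no test was made of them. C1qc, a chain of the complement protein C1q and 1 of the 18 macrophage markers, is shown among them as an example chosen after its values were seen: it was at 29.6, 29.5 and 23.3 CPM in PBS and at 298, 114 and 102 CPM in treated libraries, without overlap (2.64, SE 0.41, edgeR adjusted p = 0.00117). Promoters of 4 genes described here that hold such letters are printed 5′ to 3′ on the gene's strand, with the PU.1 letters in capitals for Ctss (chr3:95526536-95526835, plus strand), C1qc (chr4:136892865-136893164, minus strand) and Mmp12 (chr9:7344147-7344446, plus strand) and the AP-1 letters in capitals for Mmp3 (chr9:7445572-7445871, plus strand).
Ctss: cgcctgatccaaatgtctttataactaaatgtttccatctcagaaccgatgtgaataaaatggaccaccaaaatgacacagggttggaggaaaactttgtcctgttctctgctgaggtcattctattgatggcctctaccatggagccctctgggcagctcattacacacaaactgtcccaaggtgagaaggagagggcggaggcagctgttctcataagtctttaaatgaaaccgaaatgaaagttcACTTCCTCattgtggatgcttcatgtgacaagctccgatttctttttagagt
C1qc: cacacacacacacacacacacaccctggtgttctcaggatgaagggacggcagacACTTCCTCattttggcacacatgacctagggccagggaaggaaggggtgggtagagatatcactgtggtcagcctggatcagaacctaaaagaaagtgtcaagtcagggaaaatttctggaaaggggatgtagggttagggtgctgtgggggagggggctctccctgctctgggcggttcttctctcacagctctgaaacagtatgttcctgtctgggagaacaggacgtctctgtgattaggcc
Mmp12: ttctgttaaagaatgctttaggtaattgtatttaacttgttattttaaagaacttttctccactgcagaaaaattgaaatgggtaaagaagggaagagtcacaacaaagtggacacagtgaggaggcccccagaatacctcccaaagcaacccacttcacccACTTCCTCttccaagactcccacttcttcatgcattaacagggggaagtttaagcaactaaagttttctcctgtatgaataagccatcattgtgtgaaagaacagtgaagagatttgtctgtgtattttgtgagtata
Mmp3: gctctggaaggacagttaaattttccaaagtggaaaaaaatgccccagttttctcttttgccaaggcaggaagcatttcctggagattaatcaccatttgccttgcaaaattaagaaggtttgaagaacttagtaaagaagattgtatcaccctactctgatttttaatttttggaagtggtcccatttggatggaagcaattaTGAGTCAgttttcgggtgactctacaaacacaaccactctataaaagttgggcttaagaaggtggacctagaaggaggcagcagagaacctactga
In the Ctss window the match covers bases 249 to 256, counted from 1 at the 5′ end with the start site at base 251, and in the Mmp12 window bases 163 to 170. C1qc holds it at bases 56 to 63. The Mmp3 match lies at bases 205 to 211.

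Neutrophil genes had the largest list median. Of 10 tested, 7 rose and none fell, with a median log2 fold change of 6.44, or 5.67 when the 2 genes without a count in PBS are set to a bound of 3 counts over the 3 PBS libraries. Their summed level was 2.59, 2.77 and 2.04 CPM in PBS and 24.3, 189 and 93.5 CPM in treated aorta, with treated 1 the lowest of the treated libraries and still above PBS. Csf3r, the receptor for granulocyte colony-stimulating factor, was at 1.58, 1.49 and 1.31 CPM against 8.15, 79.0 and 23.9 CPM (4.67, SE 0.67, edgeR adjusted p = 0.000795). S100a9, a subunit of the calcium-binding protein calprotectin, was at 0.466, 0.395 and 0.200 CPM against 8.10, 55.5 and 30.0 CPM (6.46, SE 1.02, edgeR adjusted p = 0.00131). Its partner S100a8 rose by 5.46 log2 units (SE 1.06, edgeR adjusted p = 0.00466). Under the kidney covariate 4 of the 10 were called.

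The 10 largest rises under the naming rule were Trem1, an activating receptor of neutrophils and monocytes, the receptors Sirpb1a, Cxcr2, Clec4e and Il1r2, the chemokines Cxcl2 and Cxcl3, S100a9, the inflammasome protein pyrin (Mefv) and the lectin Chil3, with log2 fold changes from 5.73 to 8.55. Trem1 was at 0.0548, 0 and 0 CPM in PBS and at 0.361, 11.7 and 11.6 CPM in treated libraries (8.55, SE 1.35, edgeR adjusted p = 0.00206). Cxcr2, the receptor for neutrophil-attracting chemokines, was at 0.123, 0.0539 and 0.213 CPM against 0.722, 13.6 and 9.35 CPM. S100a9 and Cxcr2 are in the neutrophil list and Cxcl2 in the cytokine list, and the other 7 are in no list. In each of the 10, treated 1 was the lowest treated library, and the rule took only genes whose groups do not overlap. Treated 1 was the lowest treated library for 744 of the 1083 genes called higher (68.7%), beside 43.2% of all genes tested. Of the 10, Cxcl3, Clec4e and Mefv lost their call without 1 or another library (largest edgeR adjusted p 0.0875, 0.06 and 0.0705).

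Cytokines and chemokines followed, with 14 of 20 higher, none lower and a median log2 fold change of 4.04. Cxcl1, a neutrophil attractant, was at 1.11, 0.827 and 1.20 CPM in PBS and at 3.58, 27.8 and 28.5 CPM in treated libraries (4.25, SE 0.72, edgeR adjusted p = 0.00189). Ccl8, an attractant of monocytes, was at 2.34, 1.04 and 1.03 CPM against 24.7, 28.0 and 15.1 CPM (3.94, SE 0.75, edgeR adjusted p = 0.00424), so that here treated 1 was between the others. Cxcl12, the ligand of CXCR4 made by stromal cells, was at 248, 174 and 239 CPM against 505, 549 and 655 CPM (1.37, SE 0.25, edgeR adjusted p = 0.00291). By contrast Il6 was at 0.672, 0.216 and 0.280 CPM in PBS and at 0.645, 36.0 and 67.7 CPM in treated aorta, with treated 1 within the PBS range (6.46, SE 1.58, edgeR adjusted p = 0.0188). Il1b showed the same split, at 0.954 CPM in treated 1 against 45.2 and 33.3 CPM in treated 2 and 3 and 0.267 to 0.973 CPM in PBS. Il6 lost its call without PBS 1, PBS 2, PBS 3 or treated 3 (largest edgeR adjusted p 0.0805), and the other genes named here kept theirs. Under the kidney covariate 5 of the 20 were called.

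Lymphoid lists held no called gene. None of 12 T and NK cell genes was called in either direction (median log2 fold change 0.70), and none of 10 B and plasma cell genes (median -0.06). Cd3e, a chain of the T cell receptor complex, was at 0.946, 0.270 and 0.387 CPM against 0.516, 2.19 and 2.06 CPM (edgeR adjusted p = 0.271). Of 15 interferon-stimulated genes none was called (median 0.29), with Mx1, an antiviral GTPase, nearest at 1.71, 0.593 and 2.29 CPM against 2.22, 7.58 and 12.3 CPM (edgeR adjusted p = 0.0514). Of 11 antigen presentation genes 2 rose, H2-Ab1 and Cd74 of the MHC class II pathway, by 1.43 (SE 0.40, edgeR adjusted p = 0.0376) and 1.37 (SE 0.40, edgeR adjusted p = 0.0464), with no call left under the kidney covariate or without treated 1.

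Mast cell genes split. Kit, the receptor for stem cell factor on mast cells and other cells, fell: it was at 24.5, 16.2 and 36.7 CPM in PBS and at 5.78, 6.94 and 10.7 CPM after Ang-II/BAPN (-1.72 log2 units, SE 0.34, adjusted p = 0.00544 in edgeR). Fcer1a, a chain of the IgE receptor, had no count in PBS and was at 0.335, 0.287 and 0.204 CPM in treated libraries, at least 17.8-fold higher against a bound of 3 counts over the PBS group (edgeR adjusted p = 0.0206). Its call was lost without any 1 of the PBS libraries (largest adjusted p 0.0745), while that of Kit held without each library. The other 4 genes of the list were not called.

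Cell cycle genes rose with the leukocyte genes: 17 of 20 were higher, none lower, with a median log2 fold change of 2.60. Their sum was 112, 86.8 and 90.3 CPM in PBS and 183, 641 and 416 CPM in treated aorta. Mki67, the proliferation antigen Ki-67, was at 8.28, 4.64 and 9.48 CPM against 20.0, 87.3 and 61.4 CPM (2.91, SE 0.54, edgeR adjusted p = 0.00342). Plk1, a mitotic kinase, was at 1.58, 1.53 and 1.39 CPM against 6.14, 18.9 and 11.7 CPM (3.03, SE 0.52, edgeR adjusted p = 0.00209). Treated 1 was above PBS and well below treated 2 and 3 in both. Foxm1, a transcription factor of the G2 and M phases, rose by 2.21 (SE 0.39, edgeR adjusted p = 0.00232) and Cdc20, an activator of the anaphase-promoting complex, by 2.65 (SE 0.50, edgeR adjusted p = 0.00376). The kidney covariate left 5 of the 20 called.

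**Figure D2:**
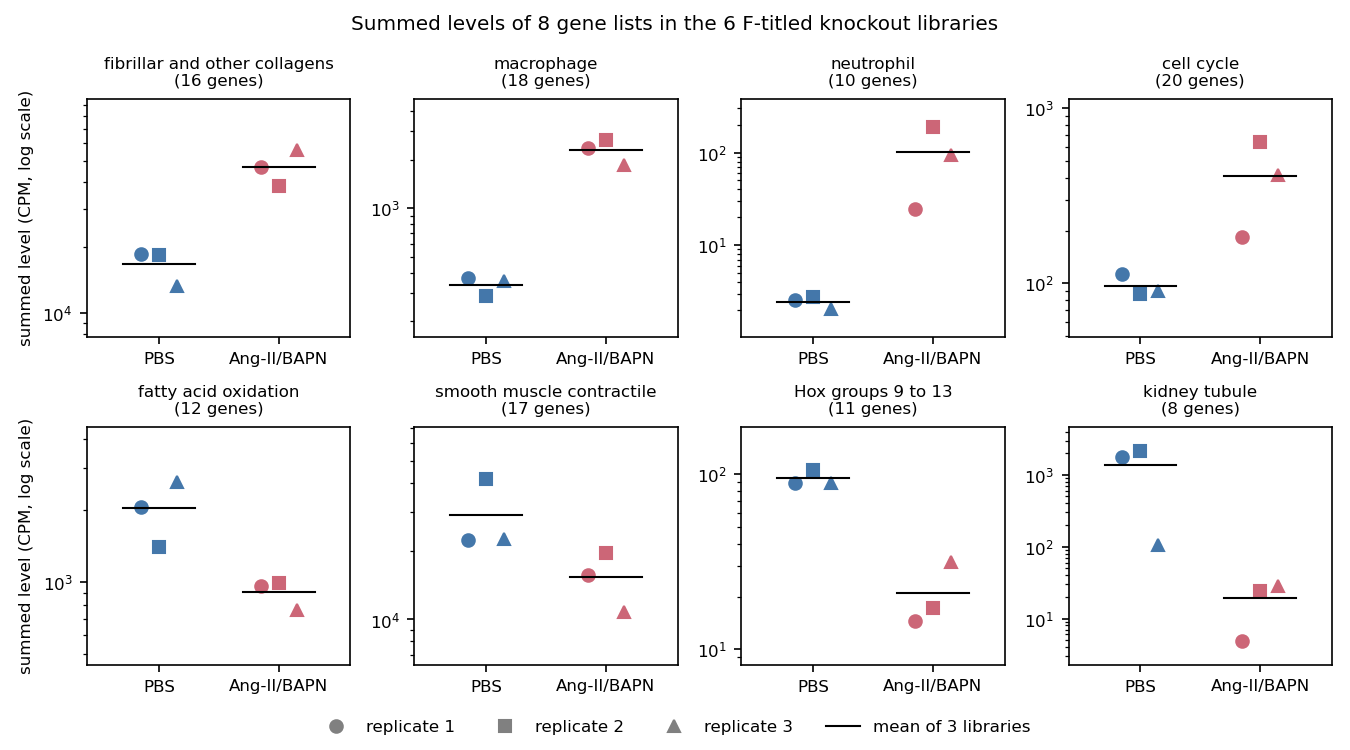
Summed levels (CPM, log scale) of 8 gene lists in each of the 6 libraries; symbols mark the replicate number and the line the mean of 3 libraries. Macrophage and collagen sums are alike in the 3 treated libraries, neutrophil and cell cycle sums are lowest in treated 1 (24.3 and 183 CPM), and the kidney sum is high in PBS 1 and 2 (1786 and 2157 CPM) and not in PBS 3.

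Most collagen chains were called higher. Of 16 collagen chains 10 rose and none fell (median log2 fold change 1.56), with a sum of 18690, 18490 and 13310 CPM in PBS and of 46610, 38240 and 55880 CPM in treated aorta. Col1a1, a chain of type I collagen, was at 3715, 4022 and 2007 CPM against 15110, 7920 and 14450 CPM (1.94, SE 0.42, edgeR adjusted p = 0.00859). Col5a2, a chain of type V collagen that helps to start fibrils, was at 346, 303 and 299.8 CPM against 922, 1393 and 1782 CPM (2.11, SE 0.29, edgeR adjusted p = 0.000785). Every treated library was above every PBS library in both. Treated 1 was the highest treated library for Col1a1 and the lowest for Col5a2. Col12a1, a collagen on the surface of fibrils, rose by 3.41 (SE 0.54, edgeR adjusted p = 0.00126), and Col8a1, a short-chain collagen of vessels, by 2.84 (SE 0.55, edgeR adjusted p = 0.00439), from 38.6, 23.0 and 35.3 CPM to 46.0, 163 and 486 CPM, with treated 1 close to PBS. Without PBS 3 the edgeR adjusted p of Col1a1 was 0.0505, and the other 3 calls held without each library. The kidney covariate left 4 of the 16 called.

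The enzymes that BAPN inhibits were called higher as transcripts. Of 15 genes of collagen folding and cross-linking 9 rose and none fell (median log2 fold change 1.45), among them all 5 lysyl oxidases. Lox was at 286, 191 and 341 CPM in PBS and at 508, 1414 and 1504 CPM in treated libraries (2.07, SE 0.50, edgeR adjusted p = 0.0185). Loxl3 was at 60.2, 80.6 and 53.3 CPM against 222, 190 and 192 CPM (1.64, SE 0.25, edgeR adjusted p = 0.00097). Loxl1, which acts on elastin, was at 258, 416 and 180 CPM against 1445, 456 and 427 CPM (1.45, SE 0.41, edgeR adjusted p = 0.041). The groups did not overlap in these 3 genes, but treated 1 was the lowest treated library for Lox and by far the highest for Loxl1. Loxl2 and Loxl4 rose by 1.72 and 2.09, also with treated 1 lowest. P4ha3, a subunit of prolyl 4-hydroxylase, rose by 3.84 (SE 0.65, edgeR adjusted p = 0.00189). Bmp1, which cuts procollagen, rose by 1.49 (SE 0.24, edgeR adjusted p = 0.00162) and its enhancer Pcolce by 1.77 (SE 0.39, edgeR adjusted p = 0.0108). Only Loxl3, P4ha3 and Bmp1 of those named kept their call without each library: Loxl1 lost it without PBS 1, PBS 3 or treated 1 (largest edgeR adjusted p 0.383), Lox without 4 of the 6 libraries (largest 0.0828), Loxl2 and Loxl4 also without 4 (0.0566 and 0.0901), and Pcolce without PBS 3 or treated 1 (0.0674). Of the 15, 6 were called under the kidney covariate.

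Of 17 elastic fibre genes 8 rose and none fell (median log2 fold change 1.23). Ltbp2, a microfibril protein, was at 66.2, 55.0 and 75.6 CPM in PBS and at 387, 318 and 593 CPM in treated libraries (2.72, SE 0.31, edgeR adjusted p = 0.000168). Fbln2, a fibulin of elastic fibres, rose by 2.10 (SE 0.29, edgeR adjusted p = 0.000785), Mfap5 of the microfibrils by 2.06 (SE 0.35, edgeR adjusted p = 0.00204), and Emilin2 by 2.56 (SE 0.50, edgeR adjusted p = 0.00484). Eln, which encodes elastin itself, was at 5149, 5437 and 4104 CPM against 15260, 12100 and 11960 CPM; its groups did not overlap, but it missed the threshold (1.42, SE 0.55, edgeR adjusted p = 0.138). The 4 rises named first held without each library, and with the kidney covariate 4 of the 17 were called.

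Of 23 matricellular and fibrosis genes 11 rose and none fell (median log2 fold change 1.36). Timp1, an inhibitor of matrix metalloproteinases, was at 17.1, 10.9 and 7.88 CPM in PBS and at 110, 544 and 549 CPM in treated aorta (5.07, SE 0.76, edgeR adjusted p = 0.00097). Ccn4, a secreted target of Wnt signalling, rose by 1.91 (SE 0.36, edgeR adjusted p = 0.00403). The secreted proteins Fn1 and Postn were not called: Postn was at 1400.0, 1000.0 and 1468 CPM in PBS and at 676, 3550 and 2977 CPM in treated libraries, with treated 1 below PBS and the other treated libraries above it (0.90, SE 0.53, edgeR adjusted p = 0.388). Of 20 matrix proteases 13 rose and none fell (median 1.77). Mmp3, stromelysin 1, was at 34.3, 37.4 and 19.8 CPM against 399.5, 214 and 303 CPM (3.33, SE 0.47, edgeR adjusted p = 0.000795). Ctss, the elastin-cutting cathepsin S, was at 16.1, 7.49 and 15.2 CPM against 69.9, 244 and 189 CPM (3.69, SE 0.55, edgeR adjusted p = 0.000962). Mmp12, the macrophage elastase, was at 0.233, 0.234 and 0.254 CPM against 2.50, 6.49 and 12.6 CPM (4.90, SE 0.79, edgeR adjusted p = 0.00147), and Mmp19 rose by 1.97 (SE 0.31, edgeR adjusted p = 0.00132). All genes called in these 2 lists and named here kept their call without each library, and with the kidney covariate 4 of the 23 and 7 of the 20 were called.

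Of 12 osteochondrogenic genes 5 rose and none fell (median log2 fold change 2.18). Runx2, the bone-forming transcription factor, was at 0.850, 0.898 and 1.39 CPM in PBS and at 5.42, 8.33 and 10.2 CPM in treated libraries (2.93, SE 0.40, edgeR adjusted p = 0.000785). Sox9, a factor of cartilage, was at 2.08, 1.87 and 1.84 CPM against 5.55, 6.21 and 9.55 CPM (1.88, SE 0.41, edgeR adjusted p = 0.00985). Both were apart between the groups, with treated 3 highest. Acan, the cartilage proteoglycan aggrecan, was at 7.17, 6.76 and 8.47 CPM against 8.38, 47.0 and 116 CPM, with treated 1 at the level of PBS (2.94, SE 0.59, edgeR adjusted p = 0.00608). Comp, another cartilage protein, rose by 3.05 (SE 0.65, edgeR adjusted p = 0.00859). Of 11 genes of endoplasmic reticulum stress 4 rose, the chaperones Hspa5 and Hsp90b1 and the disulfide isomerases Pdia4 and Pdia6, by 1.12 to 1.33, with none called under the kidney covariate and each call lost without several single libraries (largest edgeR adjusted p 0.123 to 0.194). Of the osteochondrogenic genes 2 of the 12 were called with the kidney covariate, where Sox9 and Comp were not (edgeR adjusted p = 0.0672 and 0.141), and Sox9 was at an adjusted p of 0.0533 without treated 3.

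Fibroblast markers were mixed in kind. Of 12, 5 rose and none fell (median log2 fold change 1.41), but the sum was 4411, 4834 and 3072 CPM in PBS and 11350, 3971 and 6781 CPM in treated aorta, so that treated 2 lay within the PBS range. Lum, the small proteoglycan lumican, was at 306, 149 and 191 CPM against 840, 552 and 1448 CPM (2.14, SE 0.48, edgeR adjusted p = 0.0109). Dpt, dermatopontin, was at 334, 301 and 200 CPM against 1456, 348 and 474 CPM (1.45, SE 0.42, edgeR adjusted p = 0.0428), and Serpinf1 at 214, 266 and 112 CPM against 1219, 249 and 351 CPM (1.62, SE 0.45, edgeR adjusted p = 0.0375). The high value of the last pair was that of treated 1, and without it their edgeR adjusted p was 0.404 and 0.405. Lum lost its call without PBS 2, PBS 3 or treated 3 (largest 0.0653). Without treated 1, 2 of the 12 were called higher and 1 lower, with a median of 0.57, and with the kidney covariate 1 was called higher.

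Ace and Sfrp2 shared this shape. Ace, the enzyme that makes angiotensin II, was at 140, 178 and 106 CPM in PBS and at 971, 328 and 312 CPM in treated libraries (1.92, SE 0.47, edgeR adjusted p = 0.0183), the only one of 10 renin-angiotensin genes that was called; the groups did not overlap. Without treated 1, PBS 1 or PBS 3 its call was lost (largest edgeR adjusted p 0.137, without treated 1). Agtr1a, the main receptor for angiotensin II, was at 9.38, 20.6 and 6.70 CPM against 3.92, 3.93 and 10.8 CPM, with overlapping groups (edgeR adjusted p = 0.54). Sfrp2, a secreted Wnt modulator, was at 178, 83.2 and 104 CPM against 1081, 267 and 224 CPM (2.10, SE 0.57, edgeR adjusted p = 0.0311). In the Wnt list of 16 genes 3 rose and 1 fell, beside 4.4% and 2.12% of all genes tested. Ror2, a receptor for Wnt5a, was at 3.50, 2.79 and 1.45 CPM against 12.9, 7.40 and 16.1 CPM (2.23, SE 0.41, edgeR adjusted p = 0.00293). Of the paired Wnt inhibitors, Nkd2 rose by 1.86 (SE 0.50, edgeR adjusted p = 0.0295) with overlapping groups, and Nkd1 fell by 1.24 (SE 0.34, edgeR adjusted p = 0.0328). Ror2 kept its call without each library, while Sfrp2, Nkd2 and Nkd1 lost theirs without several (largest adjusted p 0.259, 0.188 and 0.151).

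Genes called lower were of several kinds. Among the 10 largest falls under the naming rule were the 9 genes Ush1c, Pax8, Atp4a, S100g, Dio1, Slc22a8, Kif12, Klk1 and Slc7a9. They were at 6.47 to 619 CPM in PBS 1 and 2, at 0.107 to 8.95 CPM in PBS 3 and at most 1.72 CPM in any treated library. Ush1c, a scaffold protein of microvilli, Pax8, a transcription factor of kidney and thyroid, and Atp4a, a proton pump subunit, had no count in treated aorta and were at least 656-fold, 369-fold and 310-fold lower against a bound of 3 counts over the treated group. Slc22a8, an organic anion transporter of the kidney tubule, was at 120, 194 and 6.52 CPM in PBS and at 0.206, 0.796 and 0.253 CPM after treatment. Each of the 9 lost its call without 1 or another of the libraries (largest edgeR adjusted p 0.073 to 0.12). All of the 9 but Dio1 rose with the summed level of the 8 kidney tubule markers over all libraries, and of those markers 2, Slc34a1 and Lrp2, were called lower (median -6.57, or -0.26 with the kidney covariate). The covariate is made from these same 8 markers, so the smaller median under it was fixed in advance and is not a result. Over all 24 libraries, 590 genes rose with the kidney sum (2.4% of genes tested), and 155 of the 522 genes called lower were among them (29.7%).

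The falls that kept their call under the kidney covariate and did not rise with the kidney sum were looked at separately, a choice made after the values were seen. The 10 largest were Bex4, Gkn3, Paqr9, Gsta4, Ddo, Tnfrsf19, Hoxa9, Dgat2, Synpo2l and Adra1a. Adra1a, an adrenaline receptor that drives smooth muscle contraction, was at 18.6, 14.2 and 23.4 CPM in PBS and at 3.22, 4.22 and 3.38 CPM in treated libraries (log2 fold change -2.38, SE 0.33, edgeR adjusted p = 0.000785). Paqr9, a receptor of the progestin and adipoQ family, was at 30.2, 22.7 and 32.95 CPM against 2.97, 4.66 and 2.21 CPM (-3.12, SE 0.44, edgeR adjusted p = 0.000795). Gkn3, a gastrokine that also marks arterial endothelium in mice, was at 10.1, 11.4 and 7.23 CPM against 1.55, 0.535 and 0.361 CPM (-3.58, SE 0.64, edgeR adjusted p = 0.00277). Synpo2l, an actin-binding protein of muscle, fell by 2.38 (SE 0.39, edgeR adjusted p = 0.00159), and Dgat2, which completes triglycerides, by 2.40 (SE 0.52, edgeR adjusted p = 0.00929). The choice took only genes whose groups do not overlap, so the lack of overlap in these 10 is not a result. Since the choice also used the kidney sum, the level of PBS 3 in them is not independent support. Their calls held without each library, except those of Tnfrsf19 and Dgat2 without treated 2 or 3 (largest edgeR adjusted p 0.0531 and 0.0534).

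Hox genes, which record position along the body axis, divided by their group number; they were singled out after their values were seen. Groups 9 to 13 are active in the posterior body. Of their 11 genes tested 7 fell, with a median log2 fold change of -3.15, or -3.13 with the gene without a treated count at its bound. Of the 22 genes of groups 1 to 8 only Hoxd3, Hoxd4 and Hoxd8 fell, and the median was 0.05. Each of these 3 lost its call without 1 to 3 of the single libraries (largest edgeR adjusted p 0.0553, 0.0856 and 0.0553) and with the kidney covariate. Hoxa9 (chromosome 6, 52223100 to 52231089, GRCm38) was at 25.8, 27.6 and 30.5 CPM in PBS and at 4.38, 4.93 and 6.27 CPM in treated aorta (-2.43, SE 0.42, edgeR adjusted p = 0.00223). Hoxa10 was at 23.5, 23.1 and 27.0 CPM against 0.129, 2.13 and 5.98 CPM (-3.15, SE 0.71, edgeR adjusted p = 0.0121), and Hoxc10 at 11.8, 15.9 and 12.6 CPM against 0, 1.06 and 3.48 CPM (-3.13, SE 0.81, edgeR adjusted p = 0.0246). The others that fell were Hoxa11, Hoxc9, Hoxd9 and Hoxd10. PBS 3, with few kidney transcripts, was the highest PBS library for Hoxa9 and Hoxa10, between the others for Hoxc9 and Hoxc10, and the lowest for Hoxa11 (2.10, 1.83 and 1.27 CPM), Hoxd9 (9.05, 14.8 and 5.31 CPM) and Hoxd10 (1.80, 2.79 and 0.614 CPM). Hoxd10 also rose with the kidney sum over all libraries (edgeR adjusted p = 0.0118). Hoxa9 and Hoxd9 kept their call without each library, while the other 5 lost it without treated 2 and some without further libraries (largest edgeR adjusted p 0.0651 to 0.161).

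The summed level of the 11 posterior genes was 89.0, 105 and 88.2 CPM in PBS and 14.4, 17.2 and 31.2 CPM in treated libraries. That of groups 1 to 8 was 258, 338 and 291 CPM against 435, 256 and 219 CPM, with overlapping groups. The neighbours Hoxa7 and Hoxa9 lay apart: Hoxa7 was at 35.5, 45.8 and 39.2 CPM against 55.7, 30.9 and 22.4 CPM (-0.15, SE 0.31, edgeR adjusted p = 0.89). Hoxb9 was not called either (0.22, SE 0.43, edgeR adjusted p = 0.873). In the F-titled wild type and the plain-titled knockout responses none of the 11 posterior genes was called, with medians of -1.01 and -0.77. No Hox gene passed the test of a difference between responses. With the kidney covariate only Hoxa9 remained called, and without treated 1 there were 5 of the 11. Without treated 1 the median was -3.48 for groups 9 to 13 and -0.47 for groups 1 to 8, beside -0.13 over all genes. In the F-titled wild type the median of groups 1 to 8 was -0.70. Which stretch of the aorta was taken is not stated in the labels, and its part in these values was not tested.

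**Figure D3:**
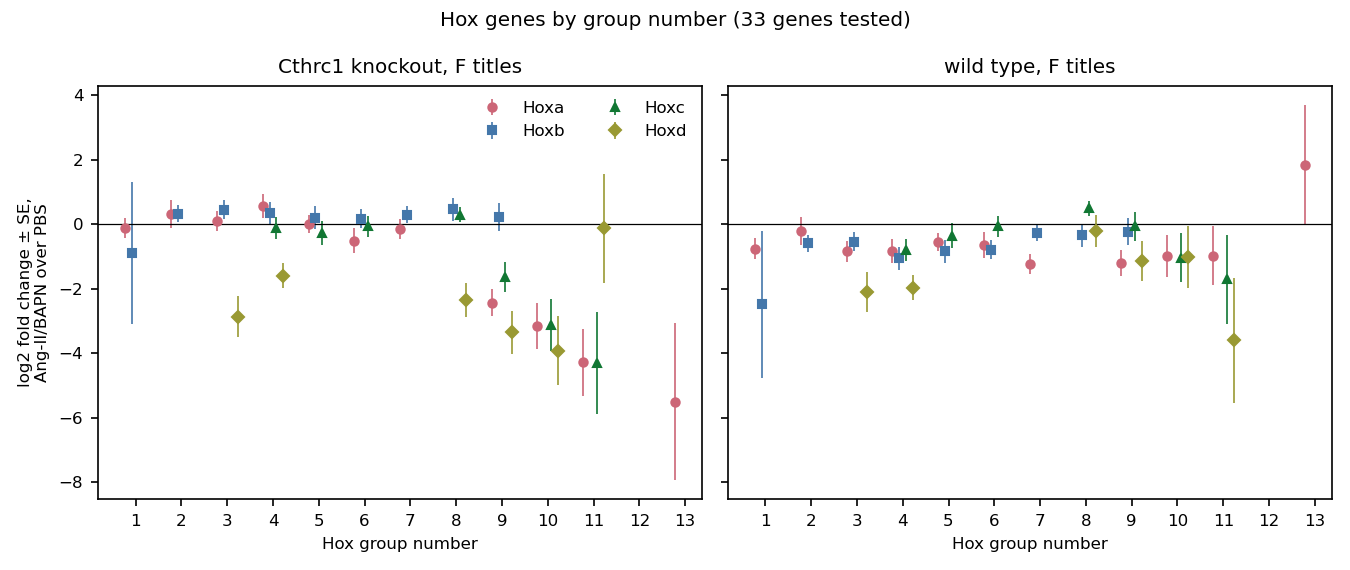
Log2 fold change with its SE (y axis) of the 33 Hox genes tested against their group number (x axis), in the F-titled knockout (left) and the F-titled wild type (right); symbols mark the 4 clusters. On the left, groups 1 to 8 had a median of 0.05, with 3 Hoxd genes called lower, and 7 of the 11 genes of groups 9 to 13 were called lower. On the right, none of the 11 was called, and groups 1 to 8 had a median of -0.70.

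Several fatty acid oxidation genes were called lower. Of 12 fatty acid oxidation genes 5 fell and none rose (median log2 fold change -1.15), and the treated libraries were below the PBS libraries without overlap for 11 of the 12, beside 10.6% of all genes tested. Acadm, medium-chain acyl-CoA dehydrogenase, was at 313, 205 and 450.2 CPM in PBS and at 106, 137 and 90.2 CPM in treated libraries (-1.54, SE 0.32, edgeR adjusted p = 0.00813). Hadhb, a subunit of the mitochondrial trifunctional protein, was at 243, 112 and 461 CPM against 65.5, 92.5 and 64.5 CPM (-1.87, SE 0.45, edgeR adjusted p = 0.0162). Acadl fell by 1.42 (SE 0.35, edgeR adjusted p = 0.0201) and the peroxisomal enzyme Ehhadh by 2.75 (SE 0.70, edgeR adjusted p = 0.0223). PBS 3 was the highest of the PBS libraries for Acadm, Hadhb and Acadl and the lowest for Ehhadh, at 89.3, 48.8 and 29.2 CPM in PBS. Ehhadh rose with the kidney sum over all libraries (edgeR adjusted p = 0.0131), and its log2 fold change was -1.09 with the kidney covariate. Acadm kept its call without each library, and Hadhb, Acadl and Ehhadh lost it without 1 or another (largest edgeR adjusted p 0.11, 0.135 and 0.0973). With the kidney covariate none of the 12 was called, and the median was -1.18.

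Of 14 nuclear genes of the respiratory chain 2 fell, Cox5a of complex IV by 1.18 (SE 0.29, edgeR adjusted p = 0.0188) and Sdha of complex II by 1.13 (SE 0.30, edgeR adjusted p = 0.0308). Without treated 1, 4 of the 14 were called lower, and with the kidney covariate 0. Over all genes tested 2.12% were called lower. Brown adipocyte genes summed to 766, 652 and 1160.0 CPM in PBS and to 746, 447 and 276 CPM in treated aorta, with overlapping groups. Of the 10, Ppargc1a, a coactivator of mitochondrial genes, fell by 1.97 (SE 0.57, edgeR adjusted p = 0.0432) and Plin5, a lipid droplet protein, by 1.80 (SE 0.53, edgeR adjusted p = 0.0492). Of 8 general adipocyte genes only the lipid droplet protein Plin1 fell (-1.36, SE 0.39, edgeR adjusted p = 0.0425), while the fatty acid carrier Fabp4 was at 1977, 1389 and 1975 CPM against 1667, 1151 and 884 CPM (edgeR adjusted p = 0.461). Each of these calls was lost without 1 or another of the libraries (largest edgeR adjusted p 0.0891 to 0.228), and none was left in these lists with the kidney covariate. The share of fat tissue around the wall was not measured, and its part in these values was not tested.

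Smooth muscle genes were lower in smaller number. Of 17 contractile genes 3 fell and none rose (median log2 fold change -0.94), beside 2.12% of all genes tested called lower. All treated libraries were below all PBS libraries for 10 of the 17, beside 10.6% of all genes tested. Des, the intermediate filament protein desmin, was at 118, 257 and 148 CPM in PBS and at 24.8, 36.3 and 72.3 CPM in treated aorta (-1.97, SE 0.42, edgeR adjusted p = 0.00886). Pln, which restrains the calcium pump, was at 20.1, 16.2 and 33.5 CPM against 6.68, 8.82 and 7.53 CPM (-1.60, SE 0.42, edgeR adjusted p = 0.0288), and Tpm1, a tropomyosin, at 1063, 1534 and 1240.0 CPM against 574, 835 and 586 CPM (-0.94, SE 0.25, edgeR adjusted p = 0.0268). The defining markers were not called: Acta2 was at 7147, 16970 and 6279 CPM against 5934, 6905 and 3486 CPM, with overlapping groups (edgeR adjusted p = 0.29), and Myh11 at 3568, 4281 and 3870 CPM against 1304, 2093 and 1187 CPM, without overlap (-1.35, SE 0.53, edgeR adjusted p = 0.148). Of 15 regulators and channels only Gucy1a1, a subunit of the nitric oxide receptor, fell (-1.51, SE 0.40, edgeR adjusted p = 0.0275). Without treated 1, 1 of the 17 contractile genes was called, and Des, Pln, Tpm1 and Gucy1a1 each lost the call without 1 or another library (largest edgeR adjusted p 0.0517, 0.14, 0.121 and 0.134).

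Of 12 endothelial genes 2 fell, beside 2.12% of all genes tested. Nos3, which makes nitric oxide in endothelium, was at 68.1, 66.4 and 58.2 CPM in PBS and at 31.9, 37.6 and 34.7 CPM in treated libraries (-0.89, SE 0.25, edgeR adjusted p = 0.0369). Vwf, von Willebrand factor, was at 324, 167 and 132 CPM against 104, 75.5 and 51.8 CPM (-1.43, SE 0.41, edgeR adjusted p = 0.0438). The list sum was 1588, 1281 and 1378 CPM against 955, 895 and 931 CPM, so that the groups did not overlap. Of 15 glycolysis and hypoxia genes only Vegfa, an endothelial growth factor, was called (-0.80, SE 0.23, edgeR adjusted p = 0.0416). Nos3 lost its call without any 1 library, and Vwf, Vegfa and Vil1 without some (largest edgeR adjusted p 0.111, 0.243, 0.142 and 0.0932 in that order). No call was made among 12 circadian clock, 8 nerve, 8 cardiac, 8 skeletal muscle or 7 red cell genes, and of 10 intestinal genes only Vil1, villin, fell, at 20.5, 23.6 and 2.63 CPM against 0.490, 0.313 and 0.541 CPM. Vil1 rose with the kidney sum over all libraries (edgeR adjusted p = 0.000178), and with the kidney covariate its log2 fold change went from -5.12 to -1.45 (edgeR adjusted p = 0.494). Skeletal muscle had a median of -2.71, red cell genes 2.69, and intestinal genes -5.17, or -3.64 with 3 genes without counts in a group at their bound.

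The response was then set beside those of the F-titled wild type (3 treated, 3 PBS) and of the plain-titled knockout (3 treated, 3 PBS), which share no library with it. In the wild type 3430 genes were called (13.9%), 1932 higher (7.85%) and 1498 lower (6.08%), and in the plain-titled knockout 418 (1.7%), 399 higher (1.62%) and 19 lower (0.0772%). Genes called higher in both F-titled genotypes numbered 864, which was 79.8% of the knockout's and 44.7% of the wild type's rises. Genes called lower in both numbered 164, or 31.4% and 10.9%. Of the 1083 genes called higher here, 98.2% had a fold change above 0 in the wild type (48.4% of all genes) and 99.5% in the plain-titled knockout (46.2% of all genes). Of the 522 called lower, 95.2% and 94.8% had one below 0 (51.3% and 53.4% of all genes). Kidney tubule genes also had medians below 0 in the wild type and the plain-titled knockout (-3.87 and -1.21), and 155 of the 522 rose with the kidney sum. The part of kidney transcripts in this agreement was not tested.

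The difference of the responses was tested itself. No gene was called by edgeR for the F-titled knockout minus the F-titled wild type, with 2557 genes at an unadjusted p under 0.05 and a smallest adjusted p of 0.458, and limma on log2(FPKM + 1) called none. DESeq2 called 118, of which 55 had a fitted log2 difference beyond 10. Kit was among the 118: it fell here and was not called in the wild type (0.63, edgeR adjusted p = 0.199), a log2 difference of -2.37 in DESeq2 (adjusted p = 0.000563) and of -2.35 in edgeR (adjusted p = 0.458). Against the plain-titled knockout edgeR and limma also called none, with 931 genes at an unadjusted p under 0.05 in edgeR, and DESeq2 called 76, 39 of them beyond 10. Nothing is therefore called particular to this knockout group, and a difference this design could not detect may exist.

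Medians of some lists are given as values for the 3 responses, a choice made after they were seen. Intestinal genes had medians of -5.17 here, 5.87 in the F-titled wild type and -0.83 in the plain-titled knockout, with some genes without counts in a group. In the same order the medians were 6.44, 5.49 and 3.25 for neutrophil and -6.57, -3.87 and -1.21 for kidney genes. They were 2.69, 2.91 and 0.36 for red cell and -0.09, -1.04 and 0.11 for circadian clock genes. The fibroblast median was 1.41 here, 0.13 in the F-titled wild type and 0.60 in the plain-titled knockout. Contractile genes had medians of -0.94, -2.01 and -0.86, with 3, 16 and 0 of 17 called lower. For B and plasma cell genes the medians were -0.06, 3.27 and -0.19, with 0, 5 and 0 of 10 called higher. Macrophage medians were 2.93, 3.09 and 2.29 and cell cycle medians 2.60, 3.42 and 2.09, with 17, 20 and 3 of 20 cell cycle genes called higher.

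**Figure D4:**
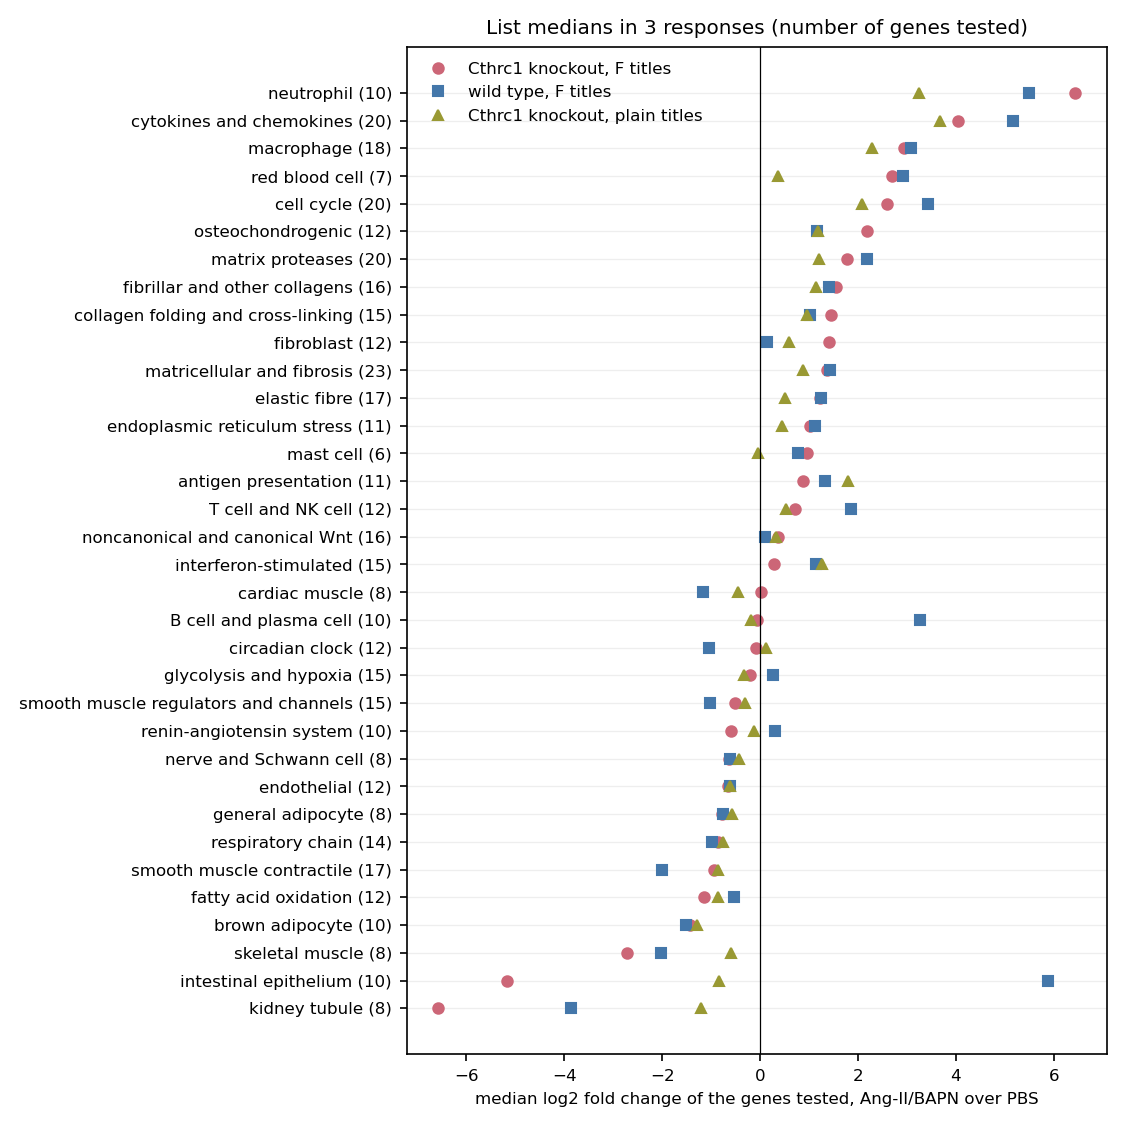
Median log2 fold change (x axis) of 34 gene lists, ordered by the median in the F-titled knockout (circles), with the F-titled wild type (squares) and the plain-titled knockout (triangles); the number of genes tested is in parentheses. Neutrophil, cytokine and macrophage lists lie highest in the F-titled knockout (6.44, 4.04 and 2.93) and kidney and intestinal lists lowest (-6.57 and -5.17). PBS 1 and 2 carried kidney transcripts, and with the kidney covariate the kidney median was -0.26 and the intestinal median -4.8. The covariate is made from the kidney list itself, so that kidney value was fixed in advance. With 3 genes without counts in a group at their bound, the intestinal median was -3.64.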

How the data were processed

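Per the labels' protocols, total RNA of aorta went into stranded libraries that were sequenced from both ends on a HiSeq instrument. The tools HISAT2, StringTie and DESeq2 and the build GRCm38 are named, per the submitters' processing notes, with no role or version. The authors deposited 1 table that gives each gene a whole-number count and its FPKM in each library; how it was counted, and whether by strand, is not given in the sources used here, so that overlapping and antisense genes, and near-identical copies such as Hba-a1 and Hba-a2, cannot be told apart. A further 4 columns, of 2 libraries without a label, were not used.

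The test of the counts was that of edgeR 4.0.16 (R 4.3.3), with filterByExpr (minimum count 10, total 15), TMM factors and a robust quasi-likelihood fit of 8 group means over all 24 libraries, so that the groups share one estimate of the spread (common biological coefficient of variation 57%). The comparisons were contrasts of these means, adjusted by Benjamini-Hochberg over 24623 genes; 15518 genes were left out by the filter. SEs come from the F statistic. Levels are CPM with TMM factors. Alternatives used RLE factors, DESeq2 1.42.0, limma 3.58.1 on the deposited FPKM as log2(FPKM + 1), other filters, other sets of libraries and a replicate block. Depth was 45186407 to 79277927 counts a library, so that for genes with many counts the spread between libraries and not counting sets the error. For genes with few counts in a group, such as Trem1 and Fcer1a in PBS, counting error also matters. Bounds of 3 counts cover counting error only. No 2 libraries agreed within sampling noise (chi-square per degree of freedom at least 196).

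On 1 set of simulated counts of 24623 genes with 200 changed in this comparison, 60.6% of 4-fold, 5.97% of 2-fold and 1.49% of 1.5-fold changes were called, and 4.26% of calls were false. The simulation changed fewer genes than the 1605 called here and gave no library kidney transcripts of its own. It also drew the changed genes only from those at 1 CPM or more on average, so that it does not cover lower ones. These shares may therefore not hold for the real counts. Named genes are Cthrc1, the 10 largest rises and falls among called genes without overlap and at 2 CPM or more on average, and up to 4 called members per list (where fewer than 2 were called, the first 2 tested as well). Genes outside this rule (Gpnmb, Acta2, Myh11, Tagln, Xist, Rn7sk, Eln, Lox, Loxl1, Loxl2, Loxl4, Fn1, Postn, Il6, Il1b, C1qc, the Hox genes) were chosen after their values were seen. Some genes that the rule names are not reported here. Members and lists were chosen with earlier results of these data known.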

Additional observations from a re-analysis of the deposited data

How the results depend on the processing

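The number of genes called moved with the method, the filter and the libraries used. It was 1605 as reported, 1606 with RLE factors, 1149 with no filter, 1893 with a stricter filter, 1753 without treated 1 and 1430 without the 5 libraries with Rn7sk above 3 CPM. It was 2991 with DESeq2, 788 with limma on log2(FPKM + 1), 687 with only the 12 F-titled libraries and 120 with only the 6 libraries compared. With the kidney covariate it was 375, and with PBS 3 as the only control, where that lone library is assumed to vary like the other groups, 103 (41 higher, 62 lower). Leaving out 1 library at a time gave 746 to 1753. Genes higher made up 67.5% of calls as reported, 54.4% with DESeq2, 80% with the 6 libraries, 57.1% with the F-titled ones, 83.5% with the kidney covariate, and 82.8% and 79.4% without treated 2 and 3. Without treated 1 the median of all genes moved to -0.13.

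The replicate block gave 491 calls, 85.1% of them higher; same-numbered libraries did not deviate together (correlations -0.269, -0.324 and -0.02), so the numbers were not taken as pairs. For the difference from the F-titled wild type the count was 0 in each alternative but DESeq2 (118), and from the plain-titled knockout 0 in each but DESeq2 (76). Leaving out 1 library at a time gave 0 for both.

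Leaving out 1 library took away the call of 31 to 42 named genes. The named genes counted here include the Hox genes and others chosen after their values were seen. No named gene reversed its direction as called. Of 119 named genes called, 25 kept their call in every alternative with more than 1 PBS library, and 14 in all 17. The causes of these moves were not tested. In the simulation, changes of 2-fold or less were mostly not called. The real counts gave some calls under 2-fold, such as that of Nos3 (log2 fold change -0.89).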
